A study of Mus musculus with 31 samples.

Results

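Loss of the stretch of the Ago2 mRNA 3'UTR that Trim71 binds (CLIPΔ, a genome-edited deletion) was examined in mouse embryonic stem cells (mESCs) that lack Ago2, to ask what the deletion does to miRNAs without Ago2 protein. The small RNA-seq compared 4 libraries of Ago2 KO/CLIPΔ mESCs, labelled as carrying the Ago2 deletion and the CLIP deletion, with 4 libraries of Ago2 KO mESCs, labelled as carrying the Ago2 deletion alone. The miRNAs described are those whose mean over these 8 libraries was 100 TPM or more (a length-scaled share of the library's total), which were 232 of the 507 miRNAs in the table. All 232 are accounted for below. The minimum applies to the mean over both groups and not to a difference between them, but it was set with earlier results of these data known. They held between 99.2% and 99.3% of the summed values of each library. The last members inside the minimum were miR-503-3p at 102 TPM and miR-3071-3p at 103 TPM, and the first outside were miR-425-3p at 96.3 TPM and miR-667-3p at 95.8 TPM.

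Both groups share the Ago2 deletion, the E14 background (ES-E14TG2a, an mESC line widely used for genome editing) and, by the study's description, culture in 2i + Lif medium, in which 2 kinase inhibitors and leukaemia inhibitory factor hold cells in the naive pluripotent state. The study lists its Ago2 KO, CLIPΔ and Ago2 KO/CLIPΔ lines all as FLAG-Trim71 mESCs, in which both alleles of Trim71 carry a FLAG tag. It also uses the FLAG-Trim71 mESCs as its WT. Edited lines grow from single cells, the labels do not say from how many clones the libraries came, and the deletion and the clone cannot be told apart. The labels call the libraries biological replicates without naming separate cultures, so p-values measure the spread between these libraries. WT and CLIPΔ mESCs, 4 libraries each, served for the comparison of the deletion with and without Ago2.

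An miRNA is cut from a hairpin by Drosha and Dicer, and one arm is loaded into an Argonaute protein, which both uses the miRNA to recognise mRNAs through its seed (bases 2 to 8) and protects it from decay. Ago2 is one of the Argonautes of mouse and the one that can slice its targets. The let-7 miRNAs promote differentiation and are kept low in mESCs by Lin28a, whereas the miR-290-295 cluster is the most characteristic miRNA cluster of mESCs. The Dlk1-Dio3 region is an imprinted domain in which Meg3, Rian, Mirg and a very large set of miRNAs are made from the maternally inherited chromosome.

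The mature sequences on which the results turn are shown with the seed in capitals, as RefSeq gives them (build GRCm38.p6, 202 of the 232 members matched by name). The first is the member that rose most, and the next 3 are Dlk1-Dio3 miRNAs whose values are given in full below.
miR-10b-5p: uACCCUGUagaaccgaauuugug
miR-431-5p: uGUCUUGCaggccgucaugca
miR-434-5p: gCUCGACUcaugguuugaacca
miR-127-3p: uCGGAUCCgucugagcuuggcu
Pairs with 1 seed follow. The first pair lies within the Dlk1-Dio3 region and rose together, and the second pair has 1 member inside the region and 1 on chromosome X.
miR-379-3p: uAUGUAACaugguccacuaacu
miR-411-3p: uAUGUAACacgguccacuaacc
miR-377-5p: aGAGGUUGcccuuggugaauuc
miR-672-5p: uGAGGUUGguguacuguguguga
The 5 let-7 members share their seed, and the miR-294-3p and miR-295-3p seed is shared by the mESC clusters.
let-7g-5p: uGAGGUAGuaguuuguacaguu
let-7e-5p: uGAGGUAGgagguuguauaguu
let-7i-5p: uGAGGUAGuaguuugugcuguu
let-7d-5p: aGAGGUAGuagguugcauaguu
miR-98-5p: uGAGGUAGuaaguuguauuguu
miR-294-3p: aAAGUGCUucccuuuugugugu
miR-295-3p: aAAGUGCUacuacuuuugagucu

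The Ago2 deletion was first checked in the RNA-seq, whose libraries are separate samples of the same genotypes. The labels do not say whether they share cultures with the small RNA libraries. Ago2 mRNA lay between 1.67 and 2.29 TPM in Ago2 KO and between 1.51 and 2.87 TPM in Ago2 KO/CLIPΔ. In the WT libraries it was at 28.2 and 21.6 TPM. These values do not check the CLIP deletion. The pluripotency mRNAs Pou5f1 (3084 to 3262 TPM) and Nanog (581 to 804 TPM) were high in all 8 RNA-seq libraries, as were Klf4 and Zfp42. These genes were chosen after values were seen. Klf4 (mean 797 to 676 TPM, log2 difference -0.24), Zfp42 (591 to 525 TPM, -0.17) and Pou5f1 (-0.05) were lower in every double mutant library, while Nanog overlapped. None had an adjusted p under 0.05 by limma. In the small RNA-seq, the steps between low values imply 807625 to 1047829 reads for the libraries of the Ago2 KO. For those of the double mutant they imply 855946 to 1289790 reads. This puts a member near 100 TPM at roughly 54 to 172 reads, the range for miR-3071-3p. Within each group the libraries correlated at 0.989 or more on the log2 scale, and between the groups at 0.966 to 0.977. Ago2 KO replicate 2 stood apart from the other 3 of its group, and the Ago2 KO/CLIPΔ libraries fell into replicates 1 and 2 and replicates 3 and 4.

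Ago2 KO/CLIPΔ mESCs differed in their miRNAs from Ago2 KO mESCs mainly in 1 chromosomal group. The Dlk1-Dio3 miRNAs rose by similar amounts, miR-10b-5p rose more, and most other members had small negative differences. After limma with Benjamini-Hochberg adjustment over all 507 miRNAs, 113 of the 232 members passed an adjusted p of 0.05, with 50 higher and 63 lower in Ago2 KO/CLIPΔ. Of all 507 miRNAs 32.1% passed (14.4% higher and 17.8% lower). No overlap between the 4 and 4 libraries was seen for 112 members (50 higher and 62 lower), against 32% of all miRNAs. The changes were moderate. A log2 difference of 1 or more was reached by 10 members upward and by 0 downward, and 0.5 or more by 49 upward and 6 downward.

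These values are shares of a library total, and 48 of the 50 higher members were Dlk1-Dio3 miRNAs. When the libraries were instead scaled on the miRNAs outside that region, the split became 53 higher and 4 lower (17.8% of the whole table passing, 2.56% lower). With the median log2 difference of each library set to 0, it was 50 higher and 21 lower. The median over the 232 members was -0.17 with library totals and 0.03 with the outside scaling, a shift of the whole table that lower calls must be read against. Small RNA values hold no external standard, so a fall in most miRNAs and a rise in a few cannot be told apart from them alone. The lower count also rested on the last 2 Ago2 KO/CLIPΔ libraries: it was 37 without replicate 3 and 35 without replicate 4.

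**Figure D1:**
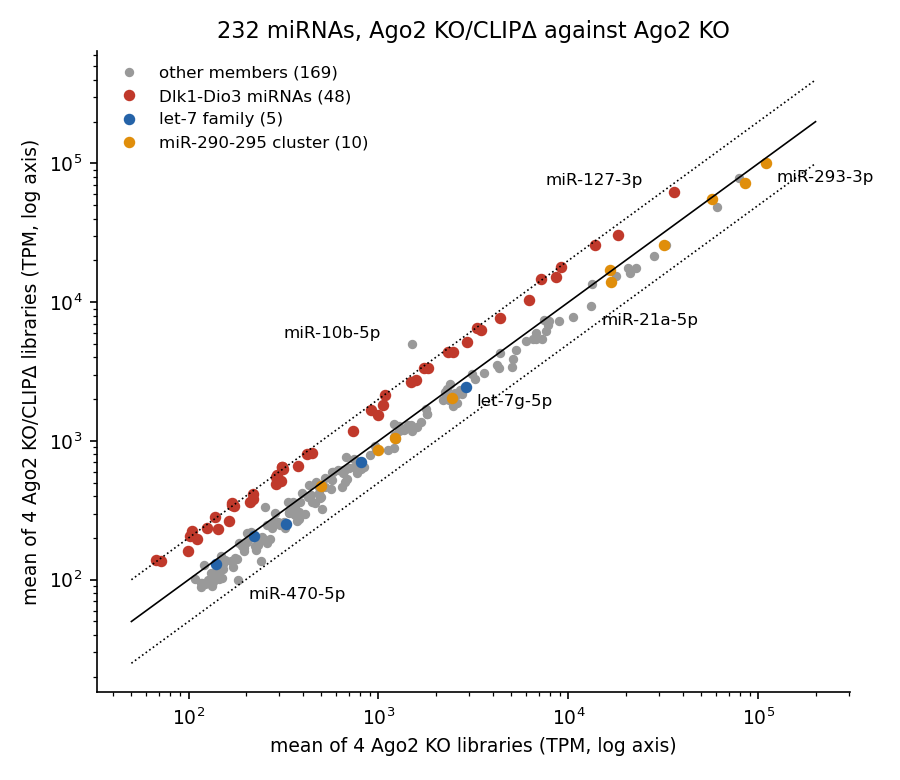
Mean TPM of each of the 232 members in Ago2 KO (x axis) and Ago2 KO/CLIPΔ (y axis), both on log axes and over 4 libraries. The solid line marks equal values and the dotted lines a factor of 2; the 48 Dlk1-Dio3 miRNAs run parallel to the equal line and above it across the whole range of levels, with miR-10b-5p farther above.

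The Dlk1-Dio3 miRNAs rose as a block. Among all 507 miRNAs 14.4% were called higher and 32% did not overlap between the groups. All 48 members of this group passed the test, with no overlap between the libraries in any of them. Their log2 differences ran from 0.64 for miR-382-5p to 1.12 for miR-431-5p, with a median of 0.89, while the median over the 184 other members was -0.22. The folds therefore stayed within 1.56 and 2.17, although the mean levels in Ago2 KO ran from 67.6 to 36042 TPM. The lowest, miR-3071-3p, was at 139 TPM in Ago2 KO/CLIPΔ and met the 100 TPM minimum only through that group. With the outside scaling the differences ran from 0.83 to 1.31 and all 48 again passed. That scaling leaves these miRNAs out of the total and moves every difference up by nearly the same amount. Its outcome for them was fixed in advance and is no further support. Under each of the 19 alternatives 44 of the 48 passed, and the other 4 (miR-3071-3p, miR-329-3p, miR-433-3p and miR-673-3p) were missed only by the fit over all 16 libraries. Another 32 miRNAs of the list lay below the 100 TPM minimum. All 32 had a positive log2 difference and 20 of them passed.

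miR-127-3p, the most abundant miRNA of the region, measured 36318, 38264, 34596 and 34988 TPM in the Ago2 KO libraries and 61942, 66158, 60417 and 61906 TPM in the Ago2 KO/CLIPΔ libraries. Every library of the double mutant lay far above every library of the Ago2 KO, a log2 difference of 0.80 (SE 0.07, adjusted p = 1.8e-07 by limma). miR-127-3p is antisense to Rtl1, a retrotransposon-derived gene of the same region. miR-541-5p, from the far end of the region, went from 18138 ± 1733 to 30610.0 ± 835 TPM (SD, n = 4 each), a log2 difference of 0.76.

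miR-434-5p held 7225, 6095, 7911 and 7293 TPM in Ago2 KO and 14049, 15537, 14569 and 15083 TPM in Ago2 KO/CLIPΔ. The 2 groups were far apart, with a log2 difference of 1.06 (SE 0.08, adjusted p = 9.19e-08 by limma). miR-431-5p, the member of the region with the largest change, held 128, 103, 106 and 80.9 TPM against 225, 202, 249 and 228 TPM. Its 8 libraries rest on only 67 to 284 reads each. The other members among the 10 that rose most were miR-341-3p (1.08), miR-300-5p (1.06), miR-127-5p (1.05), miR-369-5p (1.05), miR-380-3p (1.04), miR-673-5p (1.03) and miR-3071-3p (1.03), as log2 differences.

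Of these 48 miRNAs, 46 had a RefSeq position on chromosome 12 between 109572004 and 109743784, a span of 172 kb. RefSeq places 45 of them on the plus strand and miR-3071-3p on the minus strand. They sit in a proximal set of 14 and, after a gap of 90.8 kb, a distal set of 32, and the median log2 difference was 0.98 in the first and 0.87 in the second. Every member of both sets passed the test. The replicate pairs gave the same picture, with a median over the 48 of 0.89 in replicates 1 and 2 and 0.88 in replicates 3 and 4. The 46 sequences carried 45 different seeds, as only miR-379-3p (log2 difference 0.90) and miR-411-3p (0.91) shared one. Their mature lengths (median 22, range 19 to 25 bases) and their share of U as first base (45.7%) were close to those of the 156 other members with a sequence (median 22, range 19 to 26 bases, 43.6%). The 3p arm supplied 63.0% of the former and 46.2% of the latter.

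**Figure D2:**
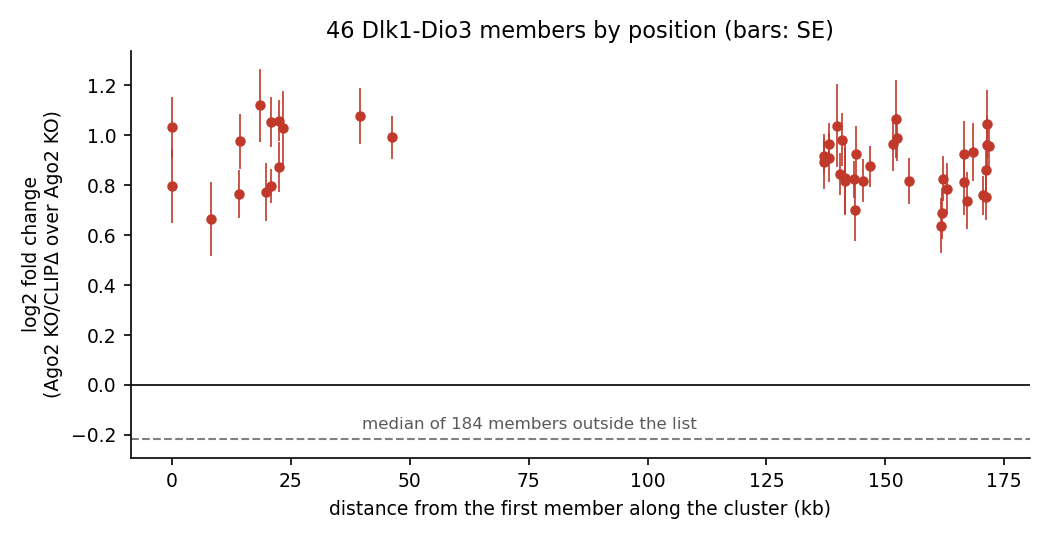
Log2 fold change (Ago2 KO/CLIPΔ over Ago2 KO, y axis, bars are SE from limma) of the 46 placed Dlk1-Dio3 members against distance in kb from the first of them (x axis). Every point lies between 0.64 and 1.12, in both the 14 proximal and the 32 distal members, and the dashed line is the median of the 184 members outside the list at -0.22.

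miR-377-5p inside the region (218 ± 22.7 to 418 ± 37.2 TPM, SD, n = 4 each, log2 difference 0.93) and miR-672-5p on chromosome X (5032 ± 1341 to 3400.2 ± 383 TPM, log2 difference -0.54) have the same seed. Among the 18 seeds held by more than 1 member, this was the one with a member called in each direction.

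As a share of all miRNA, the Dlk1-Dio3 list held 13.3%, 14.1%, 13.2% and 13.6% of the Ago2 KO libraries and 24.3%, 25.1%, 23.9% and 24.3% of the Ago2 KO/CLIPΔ libraries. The ratio of the means was 1.80, and the 2 groups of 4 did not overlap. The exact two-sided permutation p was 0.0286, the smallest that 4 against 4 can give, and 0.0286 after adjustment over 3 shares. Each of the 48 members had already separated on its own, so this outcome was fixed in advance and the p is no further support. WT and CLIPΔ mESCs held 12.9 ± 1.51% and 9.83 ± 1.37% (SD, n = 4 each).

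miR-10b-5p, an miRNA made from within the Hoxd cluster of developmental transcription factors, rose most of all members. It measured 1386, 1703, 1422 and 1525 TPM in Ago2 KO and 4739.6, 4912, 5198 and 5207 TPM in Ago2 KO/CLIPΔ. The highest Ago2 KO library lay far below the lowest double mutant library, and the log2 difference was 1.74 (SE 0.09, adjusted p = 1.53e-10 by limma), a 3.33-fold change. Its gene lies at chromosome 2, with the mature arm at 74726074 to 74726096 on the plus strand. The opposite arm, miR-10b-3p, was too low to be a member but moved alike, from 12.2, 12.3, 15.0 and 17.2 TPM to 53.3, 52.5, 62.5 and 54.9 TPM. miR-10a-5p from the Hoxb cluster, also below the minimum, went from a mean of 102 to 73.2 TPM. Both were named after their values were seen.

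miR-10b was listed among markers of differentiated cell types, so the whole marker list was examined. Of its 18 miRNAs, 9 had no row in the table, among them miR-122 of liver, miR-124 and miR-9 of neurons, miR-1a and miR-133a of muscle, and miR-126a of endothelium. Summed without miR-10b, the 11 mature miRNAs of this list that had a value reached 2729 to 2905 TPM in Ago2 KO and 2453 to 2725 TPM in Ago2 KO/CLIPΔ. Of 8 members on the list, miR-10b-5p was the only one higher, miR-145a-3p (log2 difference -0.47) and miR-145a-5p (-0.33) were lower, and 5 did not pass. The part of other cell types in the miR-10b-5p result was not tested.

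miR-16-1-3p was the remaining member called higher. It held 262, 204, 268 and 272 TPM in Ago2 KO and 300.1, 289, 365 and 384 TPM in Ago2 KO/CLIPΔ, a log2 difference of 0.41 (adjusted p = 0.0247 by limma). The call was lost without Ago2 KO replicate 2, whose value was the lowest, and without either replicate 3 or 4 of the double mutant. Other members of the miR-15 and miR-16 family, whose abundant arms restrain cell cycle genes, went the opposite way. miR-15b-3p measured 508, 619, 445 and 452 TPM against 324, 404, 289.6 and 277 TPM (log2 difference -0.65), and miR-15b-5p differed by -0.35. The family thus had 1 of 6 members higher and 2 lower. miR-16-5p was below the minimum, at 42.0 TPM in Ago2 KO and 33.8 TPM in Ago2 KO/CLIPΔ (adjusted p = 0.249 by limma).

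Of the 184 members outside the Dlk1-Dio3 list, 159 had a negative log2 difference, 63 were called lower and 2 higher. Only 4 of the 63 stayed lower under the outside scaling: miR-470-5p, miR-871-3p, miR-15b-3p and miR-21a-5p. miR-470-5p held 144, 196, 188 and 198 TPM in Ago2 KO and 84.1, 91.9, 129 and 91.8 TPM in Ago2 KO/CLIPΔ, the largest fall of all members (log2 difference -0.87, SE 0.16, adjusted p = 0.000338 by limma). All 4 libraries of the double mutant lay below all 4 of the Ago2 KO.

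miR-871-3p, which lies beside it on chromosome X by RefSeq and was named after its values were seen, went from 177, 173, 323 and 286 TPM to 108, 114, 175 and 146 TPM. The groups overlap, since Ago2 KO replicate 2 lay just below replicate 3 of the double mutant (log2 difference -0.79). Its neighbour miR-881-3p had a log2 difference of -0.44, which passed only with the replicate block (adjusted p = 0.00279 by limma, and 0.103 without). miR-21a-5p, an abundant miRNA associated with proliferation, measured 15000.4, 13100.2, 13185 and 11398 TPM in Ago2 KO and 9051, 9162, 9706 and 9492 TPM in Ago2 KO/CLIPΔ. Its groups were separate, at a log2 difference of -0.49 (SE 0.08, adjusted p = 0.000223 by limma).

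Of the 10 lowest among the lower calls whose libraries did not overlap, the 7 not yet described had log2 differences between -0.54 and -0.46 and did not pass with the outside scaling. They were miR-350-5p, miR-672-5p, miR-674-5p, miR-28a-3p, miR-130b-5p, miR-145a-3p and miR-221-3p. The outside scaling also added 3 small higher calls, miR-146a-5p, miR-27b-3p and miR-499-5p, with log2 differences of 0.22 to 0.36 on that scale.

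In the absence of Ago2 no let-7 member was called higher after the deletion. let-7g-5p, its most abundant member, measured 2706, 3237, 2648 and 2978 TPM in Ago2 KO and 2539, 2574, 2314 and 2355 TPM in Ago2 KO/CLIPΔ. The libraries of the double mutant were all slightly lower, a log2 difference of -0.24 (SE 0.09, adjusted p = 0.0444 by limma). let-7e-5p fell by 0.36 on the same scale (adjusted p = 0.0407 by limma). The difference was -0.21 for let-7i-5p, -0.13 for miR-98-5p and -0.11 for let-7d-5p, none of which passed. With the outside scaling 0 of the 5 members passed, the median of the 5 was -0.02 and let-7d-5p and miR-98-5p were above 0. Of the 10 let-7 miRNAs below the minimum, 0 passed as higher and 1 as lower. This was let-7d-3p, from 28.2 to 15.4 TPM (log2 difference -0.93, adjusted p = 0.0176 by limma). In Ago2 KO let-7f-5p was at 28.4 TPM and let-7a-5p at 4.76 TPM, so a sum over the family rests mainly on the 5 members. Summed over all 15 let-7 miRNAs in the table, the family held 0.449 ± 0.0378% of the miRNA in Ago2 KO and 0.382 ± 0.0264% in Ago2 KO/CLIPΔ (SD, n = 4 each, exact two-sided permutation p = 0.0286). Over the miRNAs outside the Dlk1-Dio3 list those shares were 0.519% and 0.506% (exact p = 0.629).

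With Ago2 present, let-7 was much higher in the cells with the deletion. let-7g-5p measured 4911, 6082, 2239.9 and 1387 TPM in the 4 WT libraries and 32770.5, 28261, 30088 and 25122 TPM in the 4 CLIPΔ libraries. The WT libraries were spread widely, yet the CLIPΔ libraries lay well above them. In the fit over 16 libraries, the median log2 effect of CLIPΔ over the 5 members was 3.91 with Ago2. The difference between the 2 effects (the effect without Ago2 minus that with Ago2) ran from -2.48 for let-7e-5p to -4.46 for let-7d-5p, and all 5 passed, as did 41.6% of the whole table. Each also passed in all 23 alternatives. The WT and CLIPΔ libraries held 3024456 to 8190570 inferred reads, several times the depth of the Ago2 KO libraries. The effect of this gap was not tested.

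The same term showed the opposite for the Dlk1-Dio3 miRNAs. With Ago2 present, 41 of the 48 members had a negative log2 effect of CLIPΔ, 18 were called lower (10.8% of all miRNAs were) and 0 higher, and the median was -0.39. Their interaction was positive throughout, from 0.37 to 2.09, and passed for 41 of 48. For miR-127-3p the WT libraries held 40514 ± 10542 TPM and the CLIPΔ libraries 28263 ± 5555 TPM (SD, n = 4 each), and for miR-434-5p 895 ± 192 and 616 ± 218 TPM. miR-10b-5p likewise held 3987 ± 421 TPM in WT and 2979.9 ± 404 TPM in CLIPΔ, an interaction of 2.16 (SE 0.18). Its level in Ago2 KO was the lowest of the 4 genotypes, and that in Ago2 KO/CLIPΔ the highest. miR-431-5p, by contrast, was near 3335 TPM in WT and 3367 TPM in CLIPΔ, far above both Ago2-deficient groups. Over all 232 members 109 passed the interaction test, 55 positive and 54 negative. Of all 507 miRNAs 41.6% passed it, 16% positive and 25.6% negative. Besides let-7, all 7 members of the miR-297, miR-466, miR-467 and miR-669 families were negative (median -1.98), and all 5 of the miR-302 and miR-367 cluster were positive (median 1.39).

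**Figure D3:**
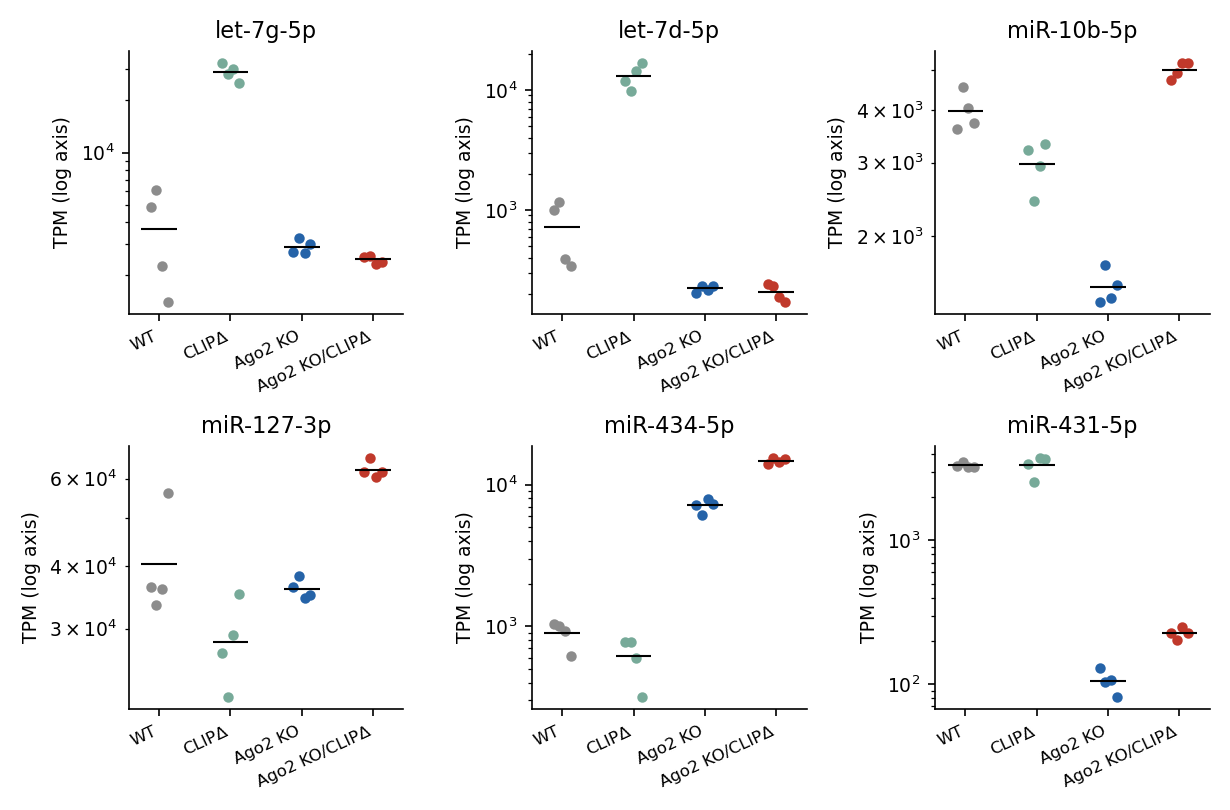
TPM per library (points, log axis) and mean (bar) for 6 miRNAs in the 4 genotypes, 4 libraries each (WT, CLIPΔ, Ago2 KO, and the double mutant Ago2 KO/CLIPΔ). let-7g-5p and let-7d-5p are highest in CLIPΔ, whereas miR-10b-5p, miR-127-3p and miR-434-5p are higher in Ago2 KO/CLIPΔ than in Ago2 KO in all libraries; miR-431-5p is low in both Ago2-deficient groups.

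The listed miRNAs of the miR-290-295 cluster changed little. The list held 11 miRNAs, all arms of miR-291a, miR-291b, miR-292b, miR-293, miR-294 and miR-295. No arm of miR-290 or miR-292a was among them, so the values cover only part of the cluster. The 10 of them that were members supplied 30.6% of the miRNA over the 8 libraries. miR-293-3p, the most abundant of all members, held 112510.0, 99206, 114092 and 114642 TPM in Ago2 KO and 98520.4, 100688, 101779 and 103375 TPM in Ago2 KO/CLIPΔ, which overlap. Its log2 difference of -0.12 did not pass (adjusted p = 0.207 by limma). miR-295-3p (-0.24), miR-294-3p (-0.30) and miR-291a-5p (-0.27) passed as lower with library totals, and 0 of the 10 with the outside scaling. miR-291a-3p differed by 0.05, and by -0.09 without Ago2 KO replicate 2, where it was low. The values of miR-293-5p (-0.05), miR-292b-3p (-0.08), miR-291b-5p (-0.21), miR-294-5p (-0.22) and miR-295-5p (-0.25) did not pass. The summed share of the 11 listed miRNAs was 32.3 ± 1.55% against 28.9 ± 0.479% (SD, n = 4 each, exact two-sided permutation p = 0.0286). Among the miRNAs outside the Dlk1-Dio3 list it was 37.3% against 38.3% (exact two-sided permutation p = 0.371).

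The proliferation-associated miR-17-92 cluster had 3 of 8 members lower, miR-20a-5p (-0.43), miR-17-5p (-0.36) and miR-92a-3p (-0.34), with a median of -0.35. Its paralogs, the miR-106a-363 and miR-106b-25 clusters, had 1 of 4 (miR-20b-5p, -0.30) and 2 of 6 (miR-25-5p, -0.29, and miR-93-5p, -0.21). The miR-183, miR-96 and miR-182 cluster had 3 of 6 lower. miR-182-5p measured 55452, 62787, 64953 and 57789 TPM against 47206, 46066, 51106 and 49766 TPM (log2 difference -0.31), and miR-183-5p and miR-96-3p differed by -0.40 and -0.35. The miR-297, miR-466, miR-467 and miR-669 families had 4 of 7 lower (miR-669c-5p -0.43, miR-669e-5p -0.41, miR-467e-5p -0.35 and miR-467c-5p -0.32). Of all 507 miRNAs 17.8% were called lower.

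In 5 further lists 1 member was lower and 0 were higher, where 17.8% of all 507 miRNAs were called lower. These were miR-302a-5p (-0.36) of 5 in the miR-302 and miR-367 cluster, miR-200b-3p (-0.39) of 5 in the epithelial miR-200 family, miR-450b-3p (-0.50) of 7 in the miR-322, miR-503, miR-450 and miR-542 cluster, miR-125b-1-3p (-0.50) of 5 in the miR-99, miR-100 and miR-125 families and miR-30d-5p (-0.21) of 8 in the miR-30 family. miR-30a-5p differed by -0.02 and miR-148a-3p, the second most abundant member, by 0.00. The list medians of these 10 lists lay between -0.35 and -0.14, beside -0.22 over the 184 members outside the Dlk1-Dio3 list, and with the outside scaling 0 of their members passed. With a replicate block, under which 39.4% of the whole table passed (24.7% lower), the lower counts rose from 3 to 5 in the miR-290-295 cluster, from 1 to 3 in both the miR-302 and miR-367 cluster and the miR-200 family, from 2 to 4 in the miR-15 and miR-16 family, from 3 to 4 in the miR-17-92 cluster, from 2 to 3 in the miR-106b-25 cluster, and from 1 to 2 in the miR-106a-363, miR-322, miR-503, miR-450 and miR-542 and miR-99, miR-100 and miR-125 lists.

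**Figure D4:**
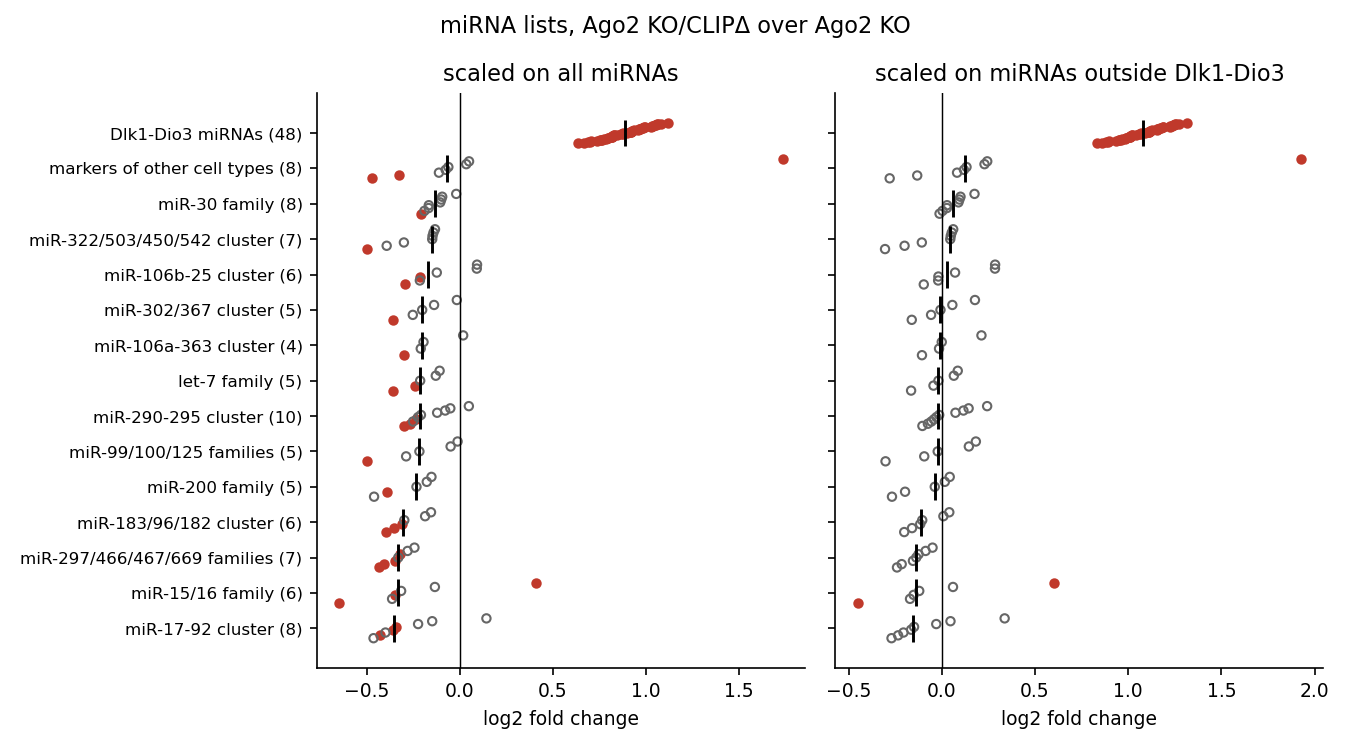
Log2 fold changes (x axis, Ago2 KO/CLIPΔ over Ago2 KO) of the members of 15 miRNA lists (y axis, members in brackets), scaled on all miRNAs (left) or on those outside Dlk1-Dio3 (right). Filled points passed an adjusted p of 0.05, open points did not, and the black bar is the list median; the Dlk1-Dio3 list stands apart in both panels, while the other medians move from below 0 to within 0.16 of it.

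The balance between the arms of a hairpin, which is set when Argonaute takes 1 strand, was then compared as the log2 ratio of 5p over 3p. Of 154 hairpins with both arms measured 0 passed (limma, 0% of the background), and 6 had an unadjusted p under 0.05, all with at least 1 arm below the minimum. The 5 with the smallest p were miR-200c (difference of log2 ratio 1.04), miR-672 (-0.50), let-7d (0.82), miR-134 (-0.55) and miR-677 (-1.10), and the smallest adjusted p of all hairpins was 0.853. Among the 52 hairpins whose arms were both members, the difference had a median size of 0.11. In the 12 hairpins of the Dlk1-Dio3 list among them it lay between -0.05 and 0.26, so both arms of these hairpins rose by similar amounts.

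The RNA-seq of the same genotypes, 4 libraries each, was read for genes that host, process or bind miRNAs. Of 10956 genes tested 353 passed (limma, 3.22%, with 0.986% higher and 2.24% lower), and 804 with a replicate block. The 3 listed host genes of the Dlk1-Dio3 region rose. Meg3 measured 29.1, 27.9, 23.3 and 27.3 TPM in Ago2 KO and 39.3, 49.99, 73.1 and 66.7 TPM in Ago2 KO/CLIPΔ. All 4 libraries of the double mutant were higher, with replicates 3 and 4 above 1 and 2 (log2 difference 1.03, SE 0.17, adjusted p = 0.0156 by limma). Rian rose from 10.01 ± 0.962 to 21.4 ± 4.999 TPM and Mirg from 6.92 ± 0.914 to 13.4 ± 0.862 TPM (SD, n = 4 each). Rtl1, named after its values were seen, rose from 2.22 to 4.16 TPM, whereas Dlk1 was at 1.88 TPM in both groups and Dio3 at 16.8 and 18.03 TPM. In WT and CLIPΔ cells Meg3 was at 139 and 75.5 TPM (means of 2 libraries).

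H19, a maternally expressed RNA of another imprinted region that hosts miR-675, went from 34.7, 33.0, 43.3 and 39.3 TPM to 7.57, 7.56, 7.50 and 7.72 TPM. This was a fall by 2.16 on the log2 scale in all libraries (SE 0.09, adjusted p = 6.67e-06 by limma). Beside miR-10b, Hoxd9 rose from 4.89 ± 1.34 to 13.9 ± 0.850 TPM and Hoxd8 from 0.802 ± 0.181 to 2.02 ± 0.415 TPM (SD, n = 4 each). In WT and CLIPΔ cells Hoxd9 was at 14.2 and 25.7 TPM and Hoxd8 at 4.03 and 6.77 TPM (means of 2 libraries). The double mutant was thus not above WT for either gene. Hoxd3, at 0.0599 and 0.148 TPM in Ago2 KO and Ago2 KO/CLIPΔ, was too low to be tested. These Hoxd genes were named after their values were seen. Mcm7, Larp7, Smc4 and Copz1, hosts of the miR-106b-25, miR-302 and miR-367, miR-15b and miR-16-2 and miR-148b hairpins, did not pass.

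Genes that act on miRNAs showed no difference past the threshold over all 8 libraries. Ago1, the Argonaute with the highest mRNA level here, measured 39.1 ± 2.40 TPM in Ago2 KO and 44.1 ± 4.996 TPM in Ago2 KO/CLIPΔ (SD, n = 4 each, adjusted p = 0.349 by limma). Ago3 and Ago4 lay below 1 TPM and were not tested, and neither were Lin28b and Sfmbt2. Lin28b, though far below 1 TPM, did not overlap between the groups. It was at 0.243 to 0.312 TPM in Ago2 KO and at 0.108 to 0.157 TPM in Ago2 KO/CLIPΔ. Of the processing genes, Drosha (log2 difference -0.12), Dgcr8 (-0.11), Xpo5 (-0.05), Dicer1 (0.12), Tarbp2 (-0.07) and Prkra (0.02) did not pass. Neither did Trim71 (-0.04), Lin28a (-0.17), the uridylyl transferases Tut4 (-0.03) and Tut7 (-0.01), the nuclease Dis3l2 (0.17) or Zswim8 (0.11), which takes part in target-directed miRNA decay. Dis3l2 did not overlap between the groups. The replicate pairs disagreed for some genes. For Tut7 the log2 difference was -0.28 in replicates 1 and 2 and 0.26 in replicates 3 and 4, and for Dicer1 -0.09 and 0.33. For Drosha it was -0.13 and -0.12. In all, 4 of the 22 listed genes tested passed: Meg3, Rian and Mirg higher and H19 lower.

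**Figure D5:**
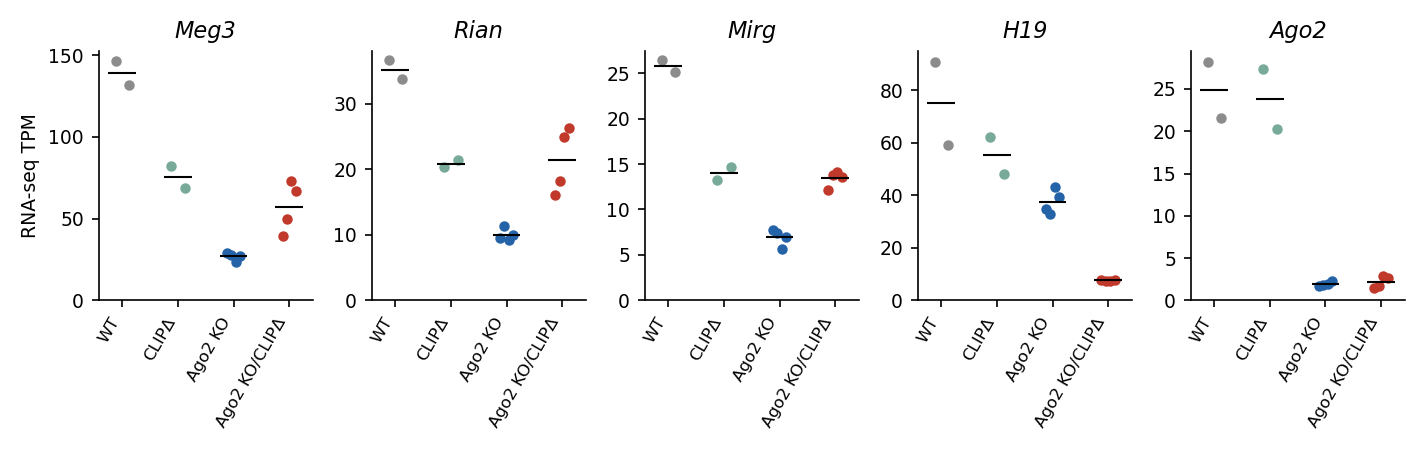
RNA-seq TPM per library (points, y axis from 0) and mean (bar) of Meg3, Rian, Mirg, H19 and Ago2 in WT and CLIPΔ (2 libraries each) and Ago2 KO and Ago2 KO/CLIPΔ (4 each). Meg3, Rian and Mirg are higher and H19 is lower in Ago2 KO/CLIPΔ than in Ago2 KO in every library, and Ago2 is near 2 TPM in both.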

How the data were processed

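Small RNA-seq (16 libraries, 8 of them compared here) and RNA-seq values are the TPM the authors deposited, made per their methods with HISAT2 2.1.0 on mm10 and counting over the longest transcript. Their processing notes also name cutadapt and SAMtools. The small-RNA table lists only miRNAs above 0 in every library, and its libraries were rescaled here to 1 common total. They are not counts, so limma 3.58.1 (R 4.3.3, trend) was run on log2(TPM + 1) over all 507 miRNAs, 154 arm ratios or 10956 genes of at least 1 TPM, with Benjamini-Hochberg adjustment at 0.05. This scale understates changes of low miRNAs. Reads were inferred from value steps, taking values of the 15 miRNAs with more than 1 genomic position as divided over those positions. The levels of such miRNAs may be understated, which was not tested. The limma comparison of miRNAs was checked on simulated data with independent libraries. These lacked the shared deviations between libraries given below, so the check does not cover their effect on p-values. Named miRNAs were all let-7 and miR-290-295 members, the 10 most abundant, the 10 highest and 10 lowest non-overlapping calls, qPCR-measured miRNAs, up to 4 calls per list, and 5 hairpins. Members and lists were chosen with earlier results of these data known, and miR-496a was added to the Dlk1-Dio3 list by position. Same-numbered libraries deviated together (r 0.1 to 0.218 in small RNA, 0.324 to 0.434 in RNA-seq), as did replicates 1 with 2 and 3 with 4. Intervals and floors are not given because depth was only inferred.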

Additional observations from a re-analysis of the deposited data

Results flagged for a closer look

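In 8 of 178 groups of 4 libraries, 1 library lay far from the other 3, where chance alone flags about 1 in 20 groups. Of these, 5 were Ago2 KO replicate 2: miR-291a-3p (12215 TPM, the others 17728 to 18557), miR-293-3p (99206 TPM, the others 112510.0 to 114642), miR-92a-3p (42016 TPM, the others 29227 to 30209.8), miR-672-5p (7021 TPM, the others 4098 to 4558) and miR-16-1-3p (204 TPM, the others 262 to 272). The remaining 3 were miR-470-5p in Ago2 KO replicate 1 (144 TPM, the others 188 to 198), Prkra mRNA in Ago2 KO replicate 1 (4.25 TPM, the others 4.87 to 4.99) and Lin28b mRNA in Ago2 KO/CLIPΔ replicate 2 (0.108 TPM, the others 0.151 to 0.157).

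The effect of CLIPΔ differed with and without Ago2, by an interaction term in limma over 16 libraries, in all 15 miRNAs for which it is given. Of these, 10 were picked as the largest rises without Ago2, which is 1 of the 2 effects compared, so a positive term was favoured. Over all 507 miRNAs 41.6% passed, 16% positive and 25.6% negative. The log2 difference of the effects was -4.46 for let-7d-5p, -2.48 for let-7e-5p, -3.46 for let-7g-5p, -4.12 for let-7i-5p and -4.04 for miR-98-5p. It was 2.16 for miR-10b-5p, 1.12 for miR-431-5p, 1.86 for miR-341-3p, 1.72 for miR-300-5p, 1.65 for miR-434-5p, 2.09 for miR-127-5p, 1.76 for miR-369-5p, 1.11 for miR-380-3p, 0.83 for miR-673-5p and 1.89 for miR-3071-3p. For miR-673-5p the call held in 15 of 23 alternatives, and for the other 14 in 23 of 23.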

How the results depend on the processing

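The scaling on miRNAs outside Dlk1-Dio3, the replicate pairs and the read-based Dlk1-Dio3 share were chosen after seeing the data. Members called fell from 113 to 50 in the fit over 16 libraries, 71 with median centring, 70 in replicates 1 and 2 and 57 with the outside scaling. Lower members fell from 63 to 5, 21, 21 and 4, and calls over all miRNAs from 163 to 83, 107, 102 and 90, in the same order. Of all calls in members, 44.2% were higher with library totals, 70.4% with median centring and 93.0% with the outside scaling. With that scaling the let-7 share differed by -0.014 percentage points (exact p = 0.629) and the miR-290-295 share by 0.965 (exact p = 0.371). The cause was not tested, beyond the scaling itself. Listed RNA-seq genes called were 8 in replicates 1 and 2 and 11 in replicates 3 and 4.

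With a replicate block 138 members were called (50 higher, 88 lower), 200 miRNAs in all, 4 listed genes and 0 hairpins. Of the miRNAs named in the text, miR-294-5p, miR-295-5p, miR-503-3p and miR-881-3p passed as lower with the block and not without it. No paired analysis was possible for the interaction because the WT and CLIPΔ columns carry letters.

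Leaving out 1 library gave 84 to 113 members called (49 to 50 higher, 35 to 64 lower), 122 to 154 miRNAs called, 99 to 121 members in the interaction, 3 to 4 listed genes and 0 hairpins. The shares then differed by 10.6 to 11.0 points for Dlk1-Dio3, -0.0779 to -0.0509 for let-7 and -4.04 to -2.81 for miR-290-295. With 7 libraries p cannot go below 0.0571.

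The difference in the miR-290-295 share, 28.9% against 32.3% with library totals, changed sign with the outside scaling as given above. Some small log2 differences that had not passed also changed sign. They became 0.00934 (median centring), 0.119 (replicates 1 and 2) and 0.0850 (outside scaling) for let-7d-5p, 0.166 and 0.0640 for miR-98-5p (replicates 1 and 2, outside scaling), 0.0393, 0.00155 and 0.115 for miR-292b-3p (centring, replicates 1 and 2, outside scaling), 0.0727 for miR-293-3p (outside scaling), 0.0668 and 0.143 for miR-293-5p (centring, outside scaling), -0.0670 for miR-148a-3p (replicates 3 and 4), and 0.0985, 0.0374 and 0.175 for miR-30a-5p (centring, replicates 3 and 4, outside scaling). Without 1 library the ranges were -0.0925 to 0.109 for miR-291a-3p, -0.118 to 0.0252 for miR-293-5p, -0.131 to 0.0602 for miR-148a-3p and -0.0546 to 0.0274 for miR-30a-5p. For mRNAs they were -0.0148 to 0.193 for Ago2, -0.0906 to 0.0181 for Trim71, -0.0648 to 0.100 for Prkra, -0.0815 to 0.0381 for Tut4, -0.116 to 0.0980 for Tut7, -0.00261 to 0.202 for Zswim8 and -0.0578 to 0.0410 for Larp7.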
